A study of Homo sapiens with 17 samples.

Results

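Expression of 10 regulators of inflammatory transcription was followed in IMR90 ER:RAS cells: NFKB1, NFKB2, RELA, RELB, REL, NFKBIA, NFKBIZ, TNFAIP3, CEBPB and CEBPD. They were taken by name, as transcription factors of the NF-kB and C/EBP families and inhibitors or cofactors of the NF-kB pathway, and are 10 of the 62754 genes counted. The choice was made with earlier results of these data known. IMR90 ER:RAS cells are human lung fibroblasts that carry, from a retroviral vector, a fusion of RASG12V with part of the oestrogen receptor, which 4-hydroxytamoxifen (4OHT) switches on and which leads to oncogene-induced senescence. All groups carry the fusion and all were transfected with an siRNA. The groups were DMSO vehicle with a non-targeting siRNA (DMSO siNT, n = 5), 4OHT with the non-targeting siRNA (4OHT siNT, n = 6) and 4OHT with siRNA against SMARCA4 (4OHT siSMARCA4, n = 6), all 7 days after induction. The siSMARCA4 group pools siRNAs numbered 2 and 4 in the labels, 3 libraries each, and the siNT libraries carry the same numbers. SMARCA4 encodes BRG1, a motor subunit of SWI/SNF that moves nucleosomes. Knockdown was not made in DMSO, so each statement about it holds for 4OHT alone.

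NF-kB works as pairs of 5 subunits. RELA and REL with NFKB1 (p105, processed to p50) carry the canonical pathway, and RELB with NFKB2 (p100, processed to p52) the non-canonical one. In a resting cell the pairs are held in the cytoplasm by IkB proteins, of which NFKBIA is the best known, until the IKK kinase marks the inhibitor for destruction. Several members are themselves NF-kB targets, among them NFKBIA and TNFAIP3, which shut the pathway down again. C/EBPbeta (CEBPB) acts beside NF-kB on the genes of the senescence-associated secretory phenotype (SASP), the cytokines, chemokines and proteases that senescent cells release. Activity of these proteins is set largely by their location and modification, which RNA levels do not measure.

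Library totals ranged from 39109479 to 68978119 counts (n = 17), and each member had at least 49 counts in every library, the lowest being REL. SMARCA4 was 268 ± 13.2 CPM (counts per 1e6 counts, scaled by TMM factors; SD, n = 6) in 4OHT siNT and 88 ± 22.8 CPM (n = 6) in 4OHT siSMARCA4, with no overlap (log2 fold change -1.61, SE 0.13, edgeR adjusted p 5.14e-07). Of 11 fibroblast markers, all had counts in every group, with summed levels of 25775 to 30828 CPM in DMSO siNT, 17021 to 22807 CPM in 4OHT siNT and 8918 to 14237 CPM in 4OHT siSMARCA4, and 8 of the 11 were called lower with siSMARCA4 than with siNT in 4OHT (13.8% of all genes), and 7 lower and 2 higher with 4OHT than with DMSO (27.4% and 27%). Of 14 markers of blood, epithelial, endothelial and melanocytic cells, 10 had group means under 1 CPM in each group and KRT5 was at 0 in every library, while the sum over the list was 95.1 to 125, 103 to 118 and 75.8 to 101 CPM in the same order of groups. Of the 6 of them tested, 3 were called lower and 0 higher with siSMARCA4 (13.8% and 10.4% of all genes). With 4OHT 2 were higher and 2 lower (27% and 27.4%). Library names end in V or VM, which the labels do not explain. All 6 of the 4OHT siNT libraries are VM, as are 3 of 6 in 4OHT siSMARCA4 and 3 of 5 in DMSO siNT. Values of the 10 regulators within VM libraries are therefore given beside pooled ones where a call or sign differs. They are also given where a called value moves by over 1.5 times. For the gene lists, VM counts of calls are given where they differ, and VM values of single genes are not. With 4OHT, 6 fibroblast markers were lower and 3 higher in VM libraries, beside 50.4% of all genes called there. The other markers had 3 lower and 2 higher with 4OHT, and 4 lower with siSMARCA4 (26.9% of all genes called). The labels do not say whether replicates were separate cultures, so p-values measure the spread between these libraries.

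With 4OHT, 8 of the 10 regulators rose over DMSO in siNT cells and 0 fell. TNFAIP3 rose most (5.54-fold), followed by NFKBIA (3.35-fold), RELB (3.10-fold), NFKBIZ (2.98-fold), NFKB2 (2.79-fold), CEBPB (2.36-fold), NFKB1 (1.96-fold) and RELA (1.36-fold), while REL and CEBPD were not called. A call is an edgeR quasi-likelihood adjusted p under 0.05, which 54.4% of the 19473 genes tested reached in this comparison, 27% as higher and 27.4% as lower. The 8 genes that rose also had no overlap between groups, as did 39.6% of all genes, 19.6% with higher values in 4OHT. The median log2 fold change of the 10 was 1.36, beside 0.00 over all genes tested. In bulk RNA, fewer cells expressing a gene and less of its RNA per cell cannot be told apart.

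With SMARCA4 depleted in 4OHT, 6 of the 10 rose over siNT and 4 were not called. Over all libraries no member fell in either comparison, with 0 lower in edgeR or DESeq2 or at an unadjusted p under 0.05. In VM libraries 0 were called lower with siSMARCA4 and 1, RELA, was lower at an unadjusted p under 0.05. CEBPD rose 2.00-fold, REL 1.56-fold, RELB 1.43-fold, NFKBIZ 1.36-fold, NFKBIA 1.29-fold and NFKB2 1.27-fold. Across all genes, 24.2% were called in this comparison, 10.4% as higher and 13.8% as lower, and the median log2 fold change was 0.36 over the 10 and -0.02 over all. Of the 10, 0 were free of overlap between the groups, beside 12% of all genes (4.54% higher with siSMARCA4), so that in each case the ranges of the libraries met. Among VM libraries alone, 26.9% of genes were called, and 4 of the 10 were: CEBPD, RELB and NFKB2, called in both analyses, and CEBPB. REL, NFKBIA and NFKBIZ were not called there. Both comparisons use the 4OHT siNT libraries, so a high or low value in those libraries moves them in opposite directions.

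**Figure D1:**
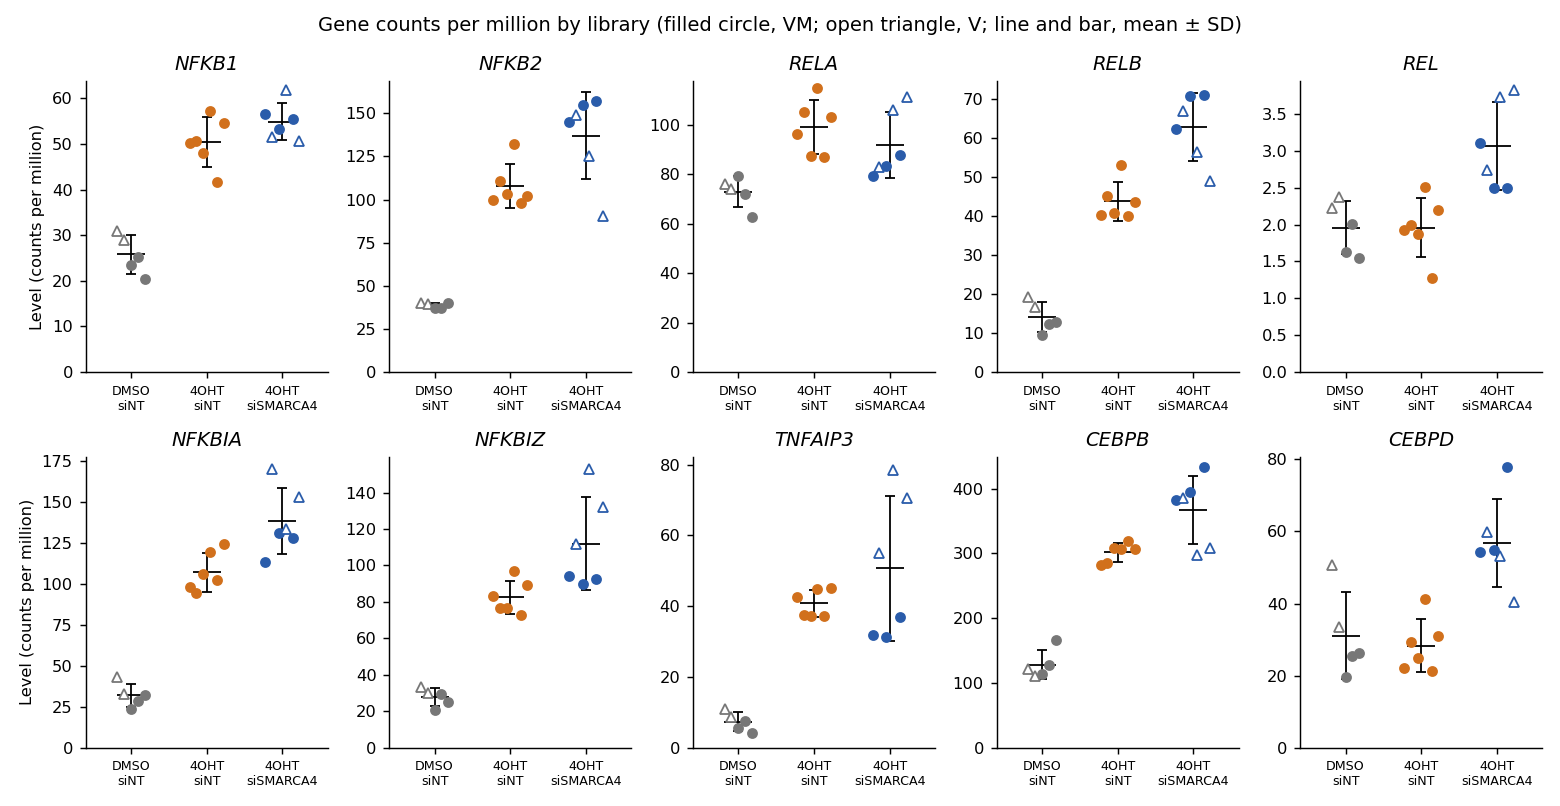
Level of each of the 10 genes in CPM (vertical axes, linear from 0) in the 5 DMSO siNT, 6 4OHT siNT and 6 4OHT siSMARCA4 libraries. Filled circles are VM and open triangles V libraries, and the line with bars is the mean ± SD. TNFAIP3 in 4OHT siSMARCA4 splits into V libraries at 55.1 to 78.5 and VM libraries at 31.3 to 36.8, whereas CEBPD is at 40.5 or more in all siSMARCA4 libraries, above all 4OHT siNT libraries but 1.

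Among the canonical subunits, RELA (ENSG00000173039; GRCh38 chr11:65653599-65663090, minus strand) encodes p65, the subunit that activates transcription in most NF-kB pairs. It had 76.2, 73.9, 79.4, 72.1 and 62.7 CPM in the DMSO siNT libraries, a low of 87.1, median of 99.5 and high of 115 CPM in 4OHT siNT, and 79.3, 85.4 and 111 CPM in 4OHT siSMARCA4. All 4OHT siNT libraries were above all DMSO libraries, while the siSMARCA4 group began within the DMSO range and reached into that of 4OHT siNT. RELA was 1.36-fold higher with 4OHT (log2 0.44, SE 0.10, edgeR adjusted p 0.00101), the smallest of the rises called. Against 4OHT siNT, the siSMARCA4 group differed by log2 -0.11 (SE 0.10, 95% interval -0.31 to 0.09, edgeR adjusted p 0.427), and RELA was the single member with a negative estimate. In VM libraries it was log2 -0.23 (SE 0.095, edgeR adjusted p 0.0857). No kB consensus was present in the 250 bases before either of its RefSeq start sites.

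NFKB1 (ENSG00000109320; chr4:102501330-102617302, plus strand) encodes p105 and p50. Of its 2 RefSeq start sites (GRCh38.p14), 1 has a kB consensus match in the 250 bases before it and the other has none. The match lies in the stretch chr4:102501270-102501329 on the plus strand, shown because the gene rose with 4OHT, with the match in capitals:
NFKB1: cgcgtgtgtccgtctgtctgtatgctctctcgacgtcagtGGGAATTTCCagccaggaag
Its levels were 31, 28.9, 23.4, 25.2 and 20.3 CPM in DMSO siNT, 41.6, 50.4 and 57.3 CPM (low, median, high) in 4OHT siNT, and 50.6, 54.3 and 61.7 CPM in 4OHT siSMARCA4. The 4OHT groups lay clear of DMSO and over one another. NFKB1 rose 1.96-fold with 4OHT (log2 0.97, SE 0.10, edgeR adjusted p 2.26e-07), and its difference with siSMARCA4 was log2 0.12 (SE 0.10, 95% interval -0.08 to 0.32, edgeR adjusted p 0.39).

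REL (ENSG00000162924; chr2:60881491-60931612, plus strand) encodes c-Rel, best known from lymphocytes, and was the least abundant of the 10. Its promoter has 2 overlapping kB matches, 1 base apart, at chr2:60881518-60881546:
REL: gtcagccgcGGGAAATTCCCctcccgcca
REL had 2.23, 2.37, 1.63, 2.01 and 1.54 CPM in DMSO siNT, 1.28, 1.96 and 2.51 CPM in 4OHT siNT, and 2.49, 2.93 and 3.82 CPM in 4OHT siSMARCA4. DMSO and 4OHT siNT libraries covered the same range, and the siSMARCA4 libraries began at the top of it. The 4OHT difference was log2 0.01 (SE 0.18, 95% interval -0.36 to 0.38, edgeR adjusted p 0.977), whereas siSMARCA4 raised REL 1.56-fold over 4OHT siNT (log2 0.64, SE 0.17, edgeR adjusted p 0.01). Within VM libraries the difference was log2 0.48 (SE 0.19) and missed the threshold (edgeR adjusted p 0.0772).

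Both non-canonical subunits rose in each comparison. NFKB2 (ENSG00000077150; chr10:102394110-102402524, plus strand) encodes p100, itself an inhibitor until it is processed to p52. In the 250 bases before 2 of its 3 RefSeq start sites lay kB matches, 3 and 2 of them. The stretch of 1 such window at chr10:102394461-102394490 on the plus strand, with overlapping matches in capitals, read:
NFKB2: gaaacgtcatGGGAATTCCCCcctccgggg
NFKB2 levels were 40.1, 39.2, 37.1, 37.3 and 39.8 CPM in DMSO siNT, 98.1, 103 and 132 CPM in 4OHT siNT, and 90.5, 147 and 157 CPM in 4OHT siSMARCA4. DMSO libraries were tightly grouped, all 4OHT libraries were above them, and 4 of the 6 siSMARCA4 libraries were above every siNT library, with 4-3V below all of them. NFKB2 rose 2.79-fold with 4OHT (log2 1.48, SE 0.12, edgeR adjusted p 5.8e-09) and a further 1.27-fold with siSMARCA4 (log2 0.35, SE 0.11, edgeR adjusted p 0.0287). In VM libraries the latter was log2 0.51 (SE 0.09, edgeR adjusted p 0.000892), but leaving out 1 library took the call away in 8 of 12 cases (log2 0.30 to 0.33, edgeR adjusted p 0.0511 to 0.0701). It held only without siNT 4-1VM or 4-2VM or siSMARCA4 4-2V or 4-3V.

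RELB (ENSG00000104856; chr19:45001461-45038192, plus strand) is the partner of p52 and is itself an NF-kB target. It had 19.2, 16.7, 9.52, 12.4 and 12.8 CPM in DMSO siNT, 40.1, 42.2 and 53.1 CPM in 4OHT siNT, and 49, 64.7 and 71 CPM in 4OHT siSMARCA4. The highest siNT library, 4-2VM, lay above the lowest siSMARCA4 library, 4-3V, and the other libraries of the 2 groups were apart. RELB rose 3.10-fold with 4OHT (log2 1.63, SE 0.15, edgeR adjusted p 3.2e-08) and 1.43-fold with siSMARCA4 over 4OHT siNT (log2 0.52, SE 0.14, edgeR adjusted p 0.0108). The rise with siSMARCA4 was called in each of the 12 cases with 1 library left out and in VM libraries alone (log2 0.65, SE 0.11, edgeR adjusted p 0.000926).

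**Figure D2:**
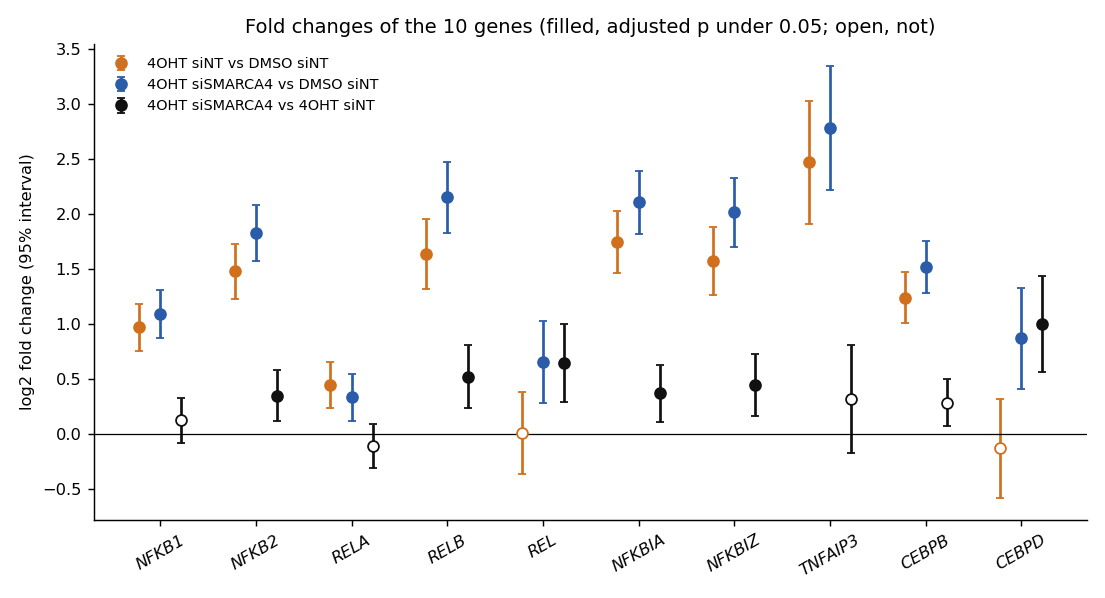
Fold changes of the 10 genes on the log2 scale, with 95% intervals, for 4OHT siNT against DMSO siNT, 4OHT siSMARCA4 against DMSO siNT and 4OHT siSMARCA4 against 4OHT siNT. Filled points have an adjusted p under 0.05. REL and CEBPD are at 0.01 and -0.13 for 4OHT with siNT and at 0.64 and 1.00 for siSMARCA4 against siNT, while TNFAIP3 has the highest value with 4OHT (2.47).

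Of the inhibitors and cofactors, NFKBIA (ENSG00000100906; chr14:35401079-35404749, minus strand) encodes IkBalpha, the inhibitor that NF-kB itself induces in a feedback loop. The promoter stretch chr14:35404781-35404870, written along the minus strand, is shown for the kB match that this feedback gene carries near its start:
NFKBIA: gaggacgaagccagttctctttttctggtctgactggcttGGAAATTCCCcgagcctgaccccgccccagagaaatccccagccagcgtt
NFKBIA levels were 42.8, 32.8, 23.6, 28.7 and 32.2 CPM in DMSO siNT, 94.4, 104 and 124 CPM in 4OHT siNT, and 113, 132 and 170 CPM in 4OHT siSMARCA4. Every 4OHT library exceeded every DMSO library by a wide margin, and the 2 highest siNT libraries reached into the siSMARCA4 range. The rise with 4OHT was 3.35-fold (log2 1.74, SE 0.13, edgeR adjusted p 3.08e-09). With siSMARCA4 it was 1.29-fold (log2 0.37, SE 0.12, edgeR adjusted p 0.0362), a call lost in VM libraries (log2 0.23, SE 0.12, edgeR adjusted p 0.172). It was also lost in 7 of 12 cases with 1 library left out (siNT 2-1VM, 4-1VM, 2-2VM or 2-3VM, siSMARCA4 2-3V, 2-3VM or 4-3V), at log2 0.30 to 0.38 and edgeR adjusted p 0.0509 to 0.0933.

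NFKBIZ (ENSG00000144802; chr3:101827991-101861022, plus strand) encodes IkBzeta, a nuclear cofactor that helps NF-kB to switch on its delayed targets. Both of its RefSeq start sites have a kB match in the 250 bases before them, and the stretch chr3:101827757-101827786 on the plus strand, before 1 of them, holds the same 10-base match as that of NFKB1:
NFKBIZ: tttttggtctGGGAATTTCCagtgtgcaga
NFKBIZ had 33.5, 29.9, 20.6, 29.7 and 25 CPM in DMSO siNT, 72.6, 79.9 and 97.1 CPM in 4OHT siNT, and 89.8, 103 and 153 CPM in 4OHT siSMARCA4. In the last group the 3 V libraries (112 to 153 CPM) were all above the 3 VM libraries (89.8 to 94.3 CPM), which lay within the upper siNT range. NFKBIZ rose 2.98-fold with 4OHT (log2 1.57, SE 0.15, edgeR adjusted p 4.47e-08). With siSMARCA4 it was 1.36-fold higher (log2 0.44, SE 0.14, edgeR adjusted p 0.0241), and log2 0.17 (SE 0.12, edgeR adjusted p 0.294) in VM libraries. The call was also lost without siNT 4-1VM (log2 0.42, edgeR adjusted p 0.0517) or siSMARCA4 4-2V (log2 0.33, edgeR adjusted p 0.0548).

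TNFAIP3 (ENSG00000118503; chr6:137867214-137883314, plus strand) encodes A20, a ubiquitin-editing enzyme that damps IKK activation. It has 2 kB matches separated by 2 bases in chr6:137867152-137867213, on the plus strand just before its first annotated exon:
TNFAIP3: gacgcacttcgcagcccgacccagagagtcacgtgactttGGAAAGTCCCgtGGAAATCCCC
Its levels were 10.9, 8.61, 5.46, 7.63 and 4.19 CPM in DMSO siNT, 37.1, 40.1 and 45 CPM in 4OHT siNT, and 31.3, 45.9 and 78.5 CPM in 4OHT siSMARCA4. The 4OHT groups were clear of DMSO, and the siSMARCA4 libraries lay on both sides of siNT, the 3 VM libraries below every siNT library and the 3 V libraries above every one. TNFAIP3 rose 5.54-fold with 4OHT (log2 2.47, SE 0.27, edgeR adjusted p 2.55e-07), and by log2 2.80 (SE 0.17, edgeR adjusted p 1.39e-08) in VM libraries. For siSMARCA4 the pooled estimate was log2 0.32 (SE 0.23, edgeR adjusted p 0.353), and in VM libraries it was log2 -0.28 (SE 0.14, edgeR adjusted p 0.174).

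The V against VM difference was then tested as a term beside the groups, an analysis added after the libraries had been seen. Of all genes, 1.95% were called, and 2 of the 10 regulators were: TNFAIP3, higher in V by log2 0.92 (SE 0.13, edgeR adjusted p 0.00352), and NFKBIZ, higher by log2 0.44 (SE 0.10, edgeR adjusted p 0.0365). In DMSO siNT, TNFAIP3 averaged 9.77 CPM in 2 V and 5.76 CPM in 3 VM libraries. NFKBIA was higher in V by log2 0.35 (SE 0.10) without being called (edgeR adjusted p 0.0806). CEBPB had the opposite sign, log2 -0.27 (SE 0.09, edgeR adjusted p 0.128). What the tags mark, and its part in these values, was not tested.

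Of the C/EBP factors, CEBPB was called with 4OHT and CEBPD with siSMARCA4 over siNT. CEBPB (ENSG00000172216; chr20:50190830-50192668, plus strand), a driver of IL6 and CXCL8 transcription in senescent fibroblasts, had the highest counts of the 10: 121, 110, 114, 128 and 166 CPM in DMSO siNT, 282, 307 and 320 CPM in 4OHT siNT, and 297, 384 and 433 CPM in 4OHT siSMARCA4. All 4OHT libraries were above DMSO, and 4 of 6 siSMARCA4 libraries were above every siNT library. CEBPB rose 2.36-fold with 4OHT (log2 1.24, SE 0.11, edgeR adjusted p 2.44e-08). With siSMARCA4 the estimate was 1.22-fold (log2 0.28, SE 0.10) and fell just short of a call (edgeR adjusted p 0.0541), whereas it was called by DESeq2 and in VM libraries (log2 0.43, SE 0.11, edgeR adjusted p 0.0103). It was also called without siSMARCA4 4-2V (log2 0.34, edgeR adjusted p 0.0196) or 4-3V (log2 0.33, edgeR adjusted p 0.0276). The antisense gene CEBPB-AS1 overlaps the locus, and the counting used strand.

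CEBPD (ENSG00000221869; chr8:47736913-47738164, minus strand) encodes C/EBPdelta, a rapidly induced partner of C/EBPbeta in acute-phase responses. Its levels were 50.6, 33.5, 19.6, 25.5 and 26.2 CPM in DMSO siNT, 21.4, 27 and 41.2 CPM in 4OHT siNT, and 40.5, 54.5 and 77.8 CPM in 4OHT siSMARCA4. The 4OHT siNT range lay inside the DMSO range, and the siNT library 4-2VM alone reached above the lowest siSMARCA4 library, 4-3V. CEBPD did not pass the test with 4OHT (log2 -0.13, SE 0.22, 95% interval -0.59 to 0.32, edgeR adjusted p 0.632), and the sign depended on the libraries and terms used. In VM libraries it was log2 0.22 (SE 0.20, edgeR adjusted p 0.385), and with the library label (siRNA number and tag, such as 2-2VM) as a replicate block CEBPD was called higher (log2 0.40, SE 0.115, edgeR adjusted p 0.025). It rose 2.00-fold with siSMARCA4 over 4OHT siNT (log2 1.00, SE 0.21, edgeR adjusted p 0.00211), the largest estimate of the 10, and in VM libraries by log2 1.15 (SE 0.19, edgeR adjusted p 0.000713). The call held in each of the 12 cases with 1 library left out, at log2 0.89 to 1.14.

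Against DMSO siNT, the 4OHT siSMARCA4 group was higher for all 10 regulators. Of all genes, 55.1% were called in this comparison, 26.5% as higher, and the median log2 fold change was 1.67 for the 10 beside -0.01 over all. TNFAIP3 (log2 2.79), RELB (2.15), NFKBIA (2.11), NFKBIZ (2.02), NFKB2 (1.82), CEBPB (1.52), NFKB1 (1.09) and REL (0.65) had no overlap between these groups, as had 36.3% of all genes, 16.4% on the higher side. CEBPD, at log2 0.87 (SE 0.22, edgeR adjusted p 0.00236), and RELA, at log2 0.33 (SE 0.10, edgeR adjusted p 0.00903), were called with overlap. In VM libraries, where 45.4% of genes were called, CEBPD was at log2 1.37 (SE 0.23), while the RELA call was lost (log2 0.21, SE 0.11, edgeR adjusted p 0.13). With siRNA number 2 alone the calls of RELA (log2 0.10, edgeR adjusted p 0.196) and REL (log2 0.43, edgeR adjusted p 0.114) were lost, and with number 4 alone both were called, at log2 0.58 (edgeR adjusted p 0.00605) and 0.905 (edgeR adjusted p 0.016). They were also lost with the replicate block on the library label, at log2 0.27 (edgeR adjusted p 0.242) for RELA and 0.75 (edgeR adjusted p 0.0844) for REL, while CEBPD was at log2 1.61 (edgeR adjusted p 0.000114). This comparison shares its libraries with both others and is no separate evidence for either.

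Library names also carry a number, 2 or 4, after the siRNA. The tags are uneven over the numbers: siSMARCA4 number 2 has 1 V and 2 VM libraries and number 4 has 2 V and 1 VM, against siNT libraries that are all VM. NFKB2 averaged 122 CPM in V and 152 CPM in VM libraries of siSMARCA4, so number and tag are not separated in the values that follow. SMARCA4 fell by similar estimates with siSMARCA4 of either number (log2 -1.63, SE 0.18, and -1.58, SE 0.18; difference -0.05, SE 0.25, edgeR adjusted p 0.951). In a fit with both numbers, for CEBPD the siSMARCA4 effect was log2 1.30 (SE 0.27) for number 2 and 0.76 (SE 0.27) for number 4, and for RELB 0.72 (SE 0.19) and 0.31 (SE 0.19). NFKB2 had log2 0.58 (SE 0.14) for number 2 and 0.11 (SE 0.14) for number 4, a difference of 0.47 (SE 0.20) that passed before adjustment (p 0.0346 from the edgeR fit across all genes) and not after (edgeR adjusted p 0.281). With edgeR, 0 of the 10 differences between numbers were called, beside 1.06% of all genes. An unadjusted p under 0.05 was reached by 1 of the 10, beside 3009 of the 19473 genes. When each number was analysed alone (3 libraries a group), 5 of the 10 were called with number 2, beside 22.9% of all genes. With number 4, 0 were called, beside 6.02%. There 5 of the 10 had an unadjusted p under 0.05 in edgeR, but the share of all genes that did was not computed. All estimates for number 4 but that of RELA were above 0, from log2 0.08 for NFKB1 to 0.80 for CEBPD.

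**Figure D3:**
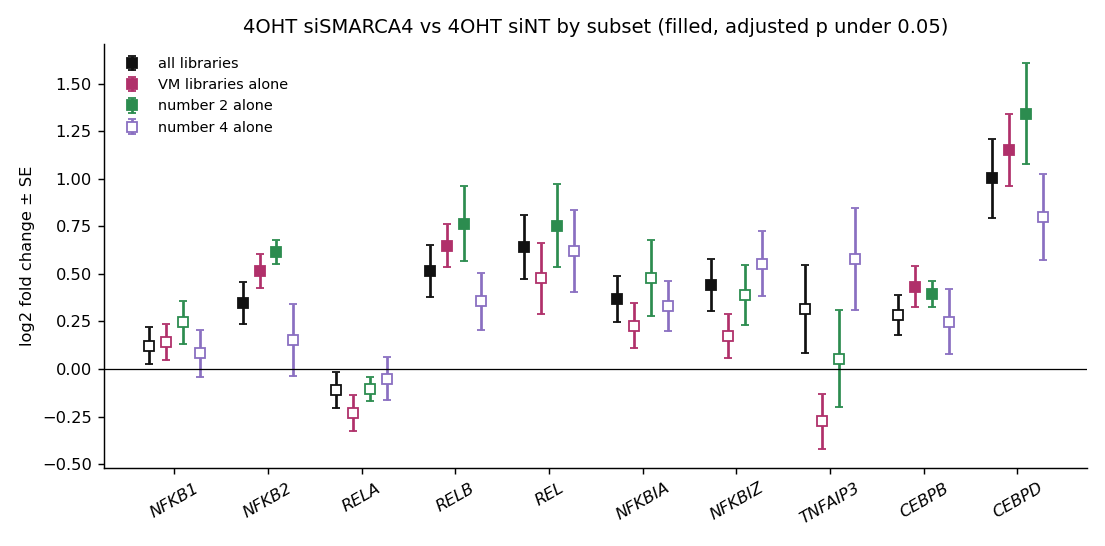
Fold change of siSMARCA4 against siNT in 4OHT (log2, ± SE) for each gene in all libraries, in VM libraries alone, and in the libraries of siRNA number 2 or number 4 alone. Filled squares have an edgeR adjusted p under 0.05. CEBPD, RELB and NFKB2 are filled for all libraries, VM alone and number 2 alone and open for number 4, and TNFAIP3 moves from 0.32 to -0.28 between all and VM libraries.

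For 4OHT against DMSO, all 8 rises were called with either number alone, beside 53.1% of all genes for number 2 and 43% for number 4. NFKB1 rose by log2 0.75 (SE 0.12) with number 2 and 1.25 (SE 0.14) with number 4, RELA by 0.24 (SE 0.09) and 0.68 (SE 0.10), and CEBPD had -0.60 (SE 0.27) and 0.39 (SE 0.30). Those 3 of the 10 differences had an unadjusted p under 0.05 in edgeR, as had 5080 of the 19473 genes. Of the 10, 0 were called, beside 2.1% of all genes. In DMSO siNT both V libraries have number 2 and both libraries of number 4 are VM, and CEBPD averaged 42.1 CPM in V and 23.8 CPM in VM, and NFKB1 30 and 23 CPM, so that number and tag are largely confounded here.

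Repeats inside introns are spliced out with the intron, so their counts can give another reading of the same loci from other reads. The counts were summed without regard to strand, so transcripts of the repeats themselves cannot be told apart from intron RNA of the gene. The paper reports that some kinds of repeats rise with SMARCA4 knockdown in senescent cells. Only 4 of the 10 genes had enough of them to be tested: RELB (82 repeat loci with counts), NFKB1 (67), NFKBIZ (10) and RELA (9). With 4OHT, all 4 were higher than in DMSO, beside 27.1% of 7915 genes called. NFKBIZ rose by log2 1.95 (SE 0.37, edgeR adjusted p 0.000138; 2.88, SE 0.325, in VM libraries), RELB by 1.28 (SE 0.26, edgeR adjusted p 0.000266), NFKB1 by 1.06 (SE 0.28, edgeR adjusted p 0.00403) and RELA by 0.996 (SE 0.28, edgeR adjusted p 0.00667). Against DMSO siNT, the 4OHT siSMARCA4 group was called higher for RELB (log2 2.41), NFKB1 (2.02) and NFKBIZ (1.22), beside 39% of genes and an all-gene median of log2 0.46, and RELA had log2 0.35 without a call. With scaling from the intron repeats themselves, described next, 2 of the 4 were called, beside 30.4% of genes, and NFKBIZ was at log2 0.78 without a call (edgeR adjusted p 0.0745). In VM libraries NFKBIZ was at log2 1.91 (SE 0.375).

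With siSMARCA4 in 4OHT, intron repeat counts of RELB went from 1.39 ± 0.22 to 3.04 ± 0.53 CPM (SD, n = 6 and 6) and of NFKB1 from 0.81 ± 0.16 to 1.56 ± 0.41 CPM, in both cases with no overlap, as had 9.36% of the 7915 genes on the higher side. RELB rose by log2 1.13 (SE 0.22, edgeR adjusted p 0.00144) and NFKB1 by 0.95 (SE 0.24, edgeR adjusted p 0.00626), whereas RELA, at -0.65 (edgeR adjusted p 0.0671), and NFKBIZ, at -0.73 (edgeR adjusted p 0.0983), were not called. RELA was called without siSMARCA4 4-2V (log2 -0.84, edgeR adjusted p 0.0283) and NFKBIZ without 4-3V (log2 -1.04, edgeR adjusted p 0.0219). Of the 7915 genes, 21.3% were called and the median log2 fold change was 0.35, so intron repeat counts as a whole were higher in this group. When the scaling was taken from the intron repeats themselves, a choice made after seeing the data, the median moved to 0.005 and all 4 genes were called, beside 16.2% of genes. NFKB1 (log2 0.60, SE 0.20, edgeR adjusted p 0.0317) and RELB (log2 0.80, SE 0.19, edgeR adjusted p 0.0046) were higher by smaller estimates, and RELA (log2 -0.995) and NFKBIZ (log2 -1.07) lower. NFKB1 was thus called in the intron repeats and not in the gene counts, and NFKBIZ had estimates of opposite sign in them. In VM libraries the intron repeats of NFKBIZ were called lower too (log2 -0.97, SE 0.26, edgeR adjusted p 0.00993), beside 16.9% of genes. The difference between the readings was not tested.

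**Figure D4:**
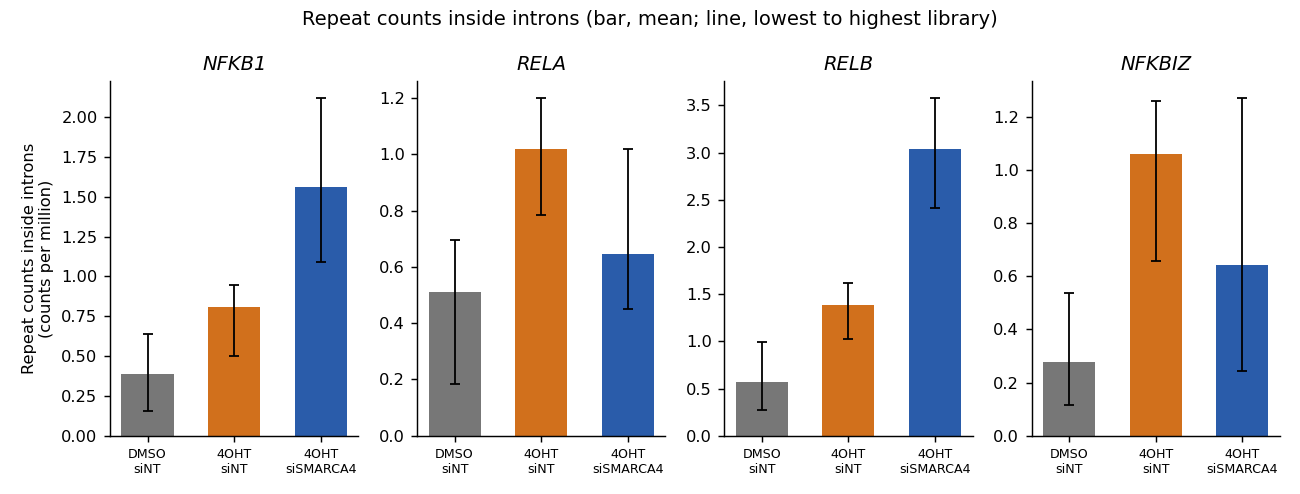
Counts of repeats inside introns of RELB, NFKB1, NFKBIZ and RELA in CPM (vertical axes, from 0) for the 3 groups. Bars are means and lines run from the lowest to the highest library. For RELB the siSMARCA4 libraries span 2.41 to 3.58 and the 4OHT siNT libraries 1.02 to 1.62.

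Compared per length, in CPM per kilobase of exon, CEBPB was the most abundant of the 10 in each group, at 69.5 ± 12.2 (SD, n = 5) in DMSO siNT, 164 ± 8.03 (n = 6) in 4OHT siNT and 200 ± 28.8 (n = 6) in 4OHT siSMARCA4, with no overlap with the next gene. REL was the least abundant, at 0.114 ± 0.021, 0.114 ± 0.024 and 0.179 ± 0.035. CEBPD had rank 2 in DMSO siNT (24.8 ± 9.56), rank 3 in 4OHT siNT (22.6 ± 5.89) and rank 2 in 4OHT siSMARCA4 (45.3 ± 9.71), by means whose ranges overlapped those of a neighbour in both 4OHT groups. NFKBIA moved from rank 4 (9.43 ± 2.08) to rank 2 (31.6 ± 3.50) and rank 3 (40.7 ± 5.91). In 4OHT siNT, the genes from NFKBIA through CEBPD, NFKB2, RELA and RELB to NFKBIZ each overlapped the next in the order, so that the order within that run is not resolved by the spread. TNFAIP3 (6.33 ± 0.60) and NFKB1 (3.21 ± 0.35) were below it without overlap. In DMSO siNT the pairs RELA and NFKBIA, NFKBIA and NFKB2, RELB and NFKBIZ, and NFKB1 and TNFAIP3 overlapped. In 4OHT siSMARCA4 CEBPD and NFKBIA overlapped, as did each next pair in the run NFKB2, RELB, NFKBIZ and RELA. The ranks also depended on the length used. By the longest transcript CEBPD was at rank 5 in 4OHT siNT and rank 3 in 4OHT siSMARCA4, where NFKBIA was at rank 2, while CEBPB and REL were at the top and bottom by either length.

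**Figure D5:**
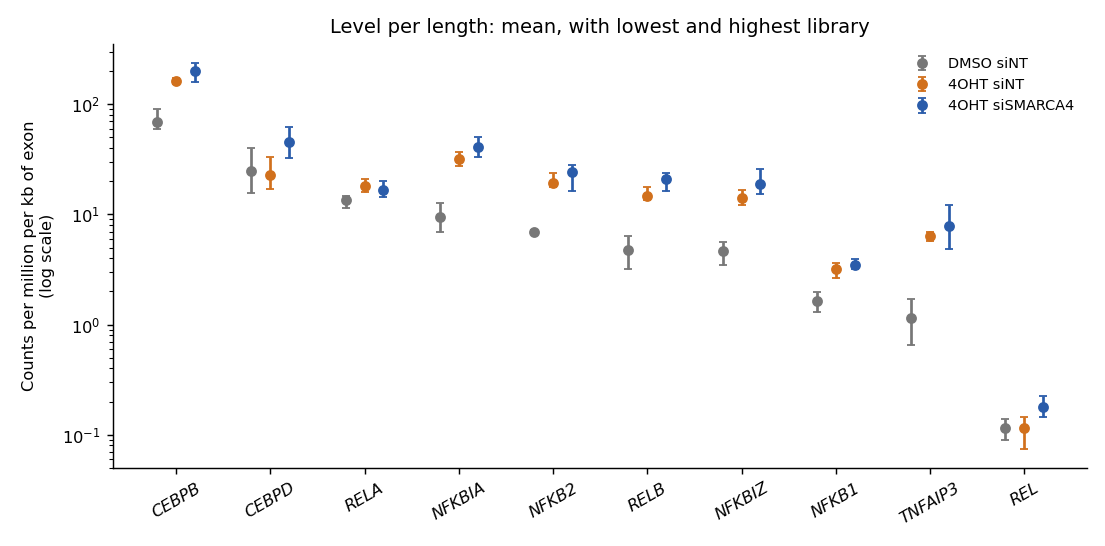
Level per length of the 10 genes in CPM per kilobase of exon (log scale), as the mean with the lowest and highest library, for the 3 groups, ordered by the DMSO siNT mean. CEBPB is at the top in each group (69.5, 164 and 200) and REL at the bottom (0.114, 0.114 and 0.179).

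Ratios of these levels within a library, which do not depend on its scaling, described the balance of the members. NFKBIA to RELA went from 0.71 ± 0.17 (SD, n = 5, range 0.48 to 0.90) in DMSO siNT to 1.75 ± 0.21 (n = 6, 1.44 to 1.95) in 4OHT siNT and 2.45 ± 0.45 (n = 6, 2.01 to 3.29) in 4OHT siSMARCA4. For this ratio the 3 groups did not overlap, but the share of other gene pairs free of overlap was not computed. NFKBIA by itself overlapped between 4OHT siNT (94.4 to 124 CPM) and 4OHT siSMARCA4 (113 to 170 CPM). RELB to RELA went from 0.36 ± 0.09 to 0.81 ± 0.04 and 1.28 ± 0.31, and NFKB2 to NFKB1 from 4.31 ± 0.74 to 6.03 ± 0.51 and 7.03 ± 1.36. For the latter the siSMARCA4 libraries (5.03 to 8.17) covered the siNT range (5.28 to 6.62), and for RELB to RELA the 2 groups also met (0.761 to 0.847 in siNT, 0.807 to 1.55 in siSMARCA4). CEBPD to CEBPB went from 0.37 ± 0.16 in DMSO to 0.14 ± 0.04 in 4OHT siNT and 0.23 ± 0.03 in 4OHT siSMARCA4, where the lowest library (0.193) was below the highest siNT library (0.197). No test was made on the ratios, which are of RNA and do not measure activity. Their size depends on the length used, while the comparison between groups does not. By longest transcript the means in 4OHT siSMARCA4 were 27.8 for RELB and 28.8 for RELA, so RELB was not above RELA.

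The counts for the lists of related genes that follow stand beside 27% of all genes called higher and 27.4% lower with 4OHT, and 10.4% and 13.8% with siSMARCA4. The list of other IkB proteins (5 genes) also holds NKRF, a repressor of NF-kB that is not an IkB protein. It had 4 higher and 0 lower with 4OHT and a median log2 fold change of 0.68. NFKBIE, an IkB of the same inhibitory kind as NFKBIA, rose by log2 1.12 (SE 0.11), and BCL3, a nuclear cofactor, by 0.79 (SE 0.145). With siSMARCA4 in 4OHT, edgeR called 0 of these 5, as did DESeq2, 0 had an unadjusted p under 0.05, and the median was 0.03; in VM libraries 1 was higher. The list of the IKK complex and its activators (21 genes) also holds some, such as TRAF3, that can restrain the pathway. Of these 21, 7 were higher and 4 lower with 4OHT, and 4 were higher and 5 lower with siSMARCA4. In VM libraries 7 were higher and 5 lower with 4OHT, and 4 higher and 4 lower with siSMARCA4. Of all genes, 50.4% and 26.9% were called there. IRAK2, a kinase below the IL-1 receptor, rose with 4OHT (log2 2.14, SE 0.09), while TRAF5 (log2 -1.99, SE 0.19), an adaptor of TNF family receptors, and IRAK4 (log2 -1.43, SE 0.10) fell. BIRC3 and TRAF1 of this list are also counted among the kB-responsive genes below. BIRC3, the ubiquitin ligase cIAP2 and a classical NF-kB target, rose in both comparisons, by log2 1.76 (SE 0.13) with 4OHT and 1.84 (SE 0.12) with siSMARCA4. Its relative BIRC2 rose by 0.66 (SE 0.12) with siSMARCA4, and the adaptor MYD88 (log2 -0.46, SE 0.11) and the kinase IRAK1 (log2 -0.30, SE 0.08) fell.

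Of 15 other brakes on the pathway, 7 were higher and 4 lower with 4OHT, and 2 were higher and 3 lower with siSMARCA4. Of all genes, 27% and 27.4% were called so with 4OHT and 10.4% and 13.8% with siSMARCA4. In VM libraries 6 of the brakes were higher and 4 lower with 4OHT, and 1 higher and 3 lower with siSMARCA4. There 50.4% and 26.9% of all genes were called. ZC3H12A, the RNase Regnase-1 that degrades cytokine mRNAs, rose by log2 3.697 (SE 0.23) with 4OHT. TNIP3, a partner of A20, rose by log2 1.85 (SE 0.32) with 4OHT and 1.92 (SE 0.27) with siSMARCA4, from a low level (0.34, 1.22 and 4.61 CPM in DMSO siNT, 4OHT siNT and 4OHT siSMARCA4). The deubiquitinase CYLD (log2 -0.54, SE 0.10) and PDLIM2 (log2 -0.945, SE 0.11) fell with 4OHT. With siSMARCA4 the ubiquitin ligase ITCH rose by 0.21 (SE 0.06), and the deubiquitinase OTULIN (log2 -0.37, SE 0.08) and TRAFD1 (log2 -0.365, SE 0.07) fell. In VM libraries TNIP3 and ITCH were not both called higher with siSMARCA4.

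CEBPA and CEBPE were too low to be tested. CEBPG rose by log2 0.44 (SE 0.09) with 4OHT and 0.45 (SE 0.08) with siSMARCA4, and DDIT3, the stress-induced C/EBP that pairs with the others, by 0.88 (SE 0.15) with 4OHT. Among 20 genes known as kB-responsive outside the chemokines, 13 were higher and 3 lower with 4OHT (median log2 1.31), and 7 were higher and 0 lower with siSMARCA4 (median 0.21; DESeq2 also 0 lower and 0 at an unadjusted p under 0.05, but 1 lower in VM libraries). All-gene shares were 27% and 27.4%, and 10.4% and 13.8%. In VM libraries 14 of these genes were higher and 3 lower with 4OHT, beside 50.4% of all genes called there. BCL2A1, an anti-apoptotic BCL2 relative, rose by log2 6.635 (SE 0.29) and the adhesion molecule ICAM1 by 4.88 (SE 0.42) with 4OHT, while VCAM1 (log2 -2.90, SE 0.49) and TNFAIP8 (log2 -2.22, SE 0.17) fell. BCL2A1 started from 4 to 17 counts a library in DMSO siNT, and VCAM1 was widely spread there (2.31 to 24 CPM). TNFAIP8 was among the genes that rose with siSMARCA4, by 1.32 (SE 0.165).

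Of 16 SASP outputs, a list gathered with results of these libraries known, 15 were higher with 4OHT and 11 with siSMARCA4, and 0 were lower (median log2 8.15 and 0.97). In neither comparison was any lower in DESeq2 or at an unadjusted p under 0.05. Within VM libraries, siSMARCA4 gave 8 higher and 2 lower, beside 26.9% of all genes called there, 43.2% of these as higher. With 4OHT all 16 were higher there, beside 50.4% of all genes called, 46.6% of these as higher. CSF3 went from 0 to 8 counts a library in DMSO siNT to 1373 to 6841 in 4OHT siNT, and the chemokine CCL20 from 0 to 2 counts to 553 to 1404. The protease MMP10 rose by log2 2.23 (SE 0.23) and the chemokine CXCL2 by 1.47 (SE 0.26) with siSMARCA4.

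Genes whose levels over the 17 libraries were most like those of a member, by Pearson r of log2 CPM among 14437 genes with a mean of at least 1 CPM, are given as a description, since all points share the 3 groups. NFKBIA was closest to CXCL2 (r 0.99), which averaged 1.05, 30.3 and 84.2 CPM in DMSO siNT, 4OHT siNT and 4OHT siSMARCA4, and to CMTM3 (0.99). NFKB1 was closest to TNFAIP2 (0.99) and JARID2 (0.985), NFKB2 to SMOX (0.99) and IL27RA (0.99), RELB to TMEM51 (0.99) and ITPKA (0.99), and RELA to XPO5 (0.97) and DPAGT1 (0.97). TNFAIP3 was closest to PRKD3 (0.99) and ICAM1 (0.98), NFKBIZ to GSAP (0.99) and SERPINB4 (0.98), and CEBPB to ATP6V0D2 (0.99) and DHRS7 (0.99). For the 2 members not called with 4OHT the values of r were lower: REL was closest to MAP3K5 (0.90) and PAK2 (0.89), and CEBPD to NR4A2 (0.91) and IL32 (0.91). NR4A2 averaged 15.2, 13 and 25 CPM and IL32 21.5, 22.9 and 41.5 CPM in the 3 groups.

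Promoter sequences, each the 250 bases before a RefSeq start site, were matched for 8 of the 10 members in 14 windows. No window was matched for RELB or CEBPD, and windows of members on chromosome 8, where CEBPD lies, were left out. Nothing is therefore said of the promoters of RELB and CEBPD. All 250 bases of the NFKB2 window shown and of both NFKBIZ windows lie in exons of protein-coding genes. The REL matches shown also lie in such an exon. A kB consensus match on either strand was present for 7 of the 8, in at least 1 window, beside 11.8% of 27305 genes with windows. That of CEBPB is a run of G and C that fits the consensus on both strands. The C/EBP pattern TTNNGNAA matched for NFKB2, RELA, NFKBIZ and TNFAIP3, 4 of the 8, beside 10407 of the 27305 genes, and the AP-1 pattern TGANTCA for 0 of 8, beside 8.06%. In TNFAIP3 the C/EBP match overlaps the first kB match. These are matches of letters and no measure of binding.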

How the data were processed

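RNA selected by poly(A) was sequenced in pairs from strand-specific libraries (n = 17). The authors deposited expected counts, 1 table a library, written as whole numbers and not normalised. Per the labels and the study's methods, the authors trimmed reads with Cutadapt 4.7, aligned them to GRCh38 with HISAT2 2.2.1 with multi-mapping pairs kept, and counted genes and repeat loci together with TElocal, set to reverse strand and multiple positions. That setting estimates how pairs with several positions are shared, which can move counts between similar loci.

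Repeat loci were summed per subfamily and joined with the genes. Rows were kept by filterByExpr (minimum count 10, minimum total 15), which left 19473 genes. TMM factors ran from 0.949 to 1.08. The quasi-likelihood test of edgeR 4.0.16 (R 4.3.3) used all libraries in a single model with the groups as terms, with Benjamini-Hochberg adjustment over genes. SE is the absolute log2 fold change over the root of F. Fold changes carry edgeR's prior count. Intron repeats are loci inside 1 gene of GENCODE 44 and outside all exons, fitted with the library sizes and factors of the gene table. Levels per length used the exon union of GENCODE 44, which holds 62700 of the 62754 gene identifiers. DESeq2 1.42.0 was an alternative. On simulated counts for siSMARCA4 against siNT (19149 genes), 43.1%, 75.8% and 95.5% of genes changed by log2 0.5, 1 and 2 were called, and 5.37% of calls were false. Only 66, 67 and 67 genes were changed, a far smaller share than the 24.2% called in the data. No difference between V and VM libraries or between siRNA numbers was simulated. These rates therefore need not hold for the data.

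The members and gene lists were chosen with earlier results of these data known. The genes named are each member, SMARCA4, up to 2 called genes with the largest rise and 2 with the largest fall per list in the first 2 comparisons, and 2 genes most like each member. Tests in both directions were used throughout. Promoter sequences and their start sites came from RefSeq (GRCh38.p14), and gene positions from GENCODE 44. No 2 libraries held identical values.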

Additional observations from a re-analysis of the deposited data

Results flagged for a closer look

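Each of the 10 genes was checked in each group for a library far from the others, 30 checks in all, of which chance alone flags about 1 in 20. A single library was flagged: NFKB2 in the 4OHT siNT library 4-2VM, at 132 CPM against 111 CPM for the next highest, a gap of 0.632 of the group's range beside a limit of 0.625. Without that library the siSMARCA4 difference of NFKB2 was log2 0.41 (edgeR adjusted p 0.0129). No difference between siRNA numbers 2 and 4 was called for any member.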

How the results depend on the processing

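The 8 rises with 4OHT were called in every alternative run, and so were the 10 calls against DMSO siNT, except RELA and REL with siRNA number 2 alone and with the block on number and tag, and RELA in VM libraries. Over these runs 25.4% to 55.3% of all genes were called with 4OHT, and 25.8% to 56.5% against DMSO siNT. For siSMARCA4 against siNT the count of members called was 6, beside 24.2% of all genes. It went to 0 with siRNA number 4 alone, beside 6.02%. Elsewhere it was 4 to 7, beside 8.58% (no filter) to 27.4% (V or VM as a covariate). With single libraries left out it was 4 to 6, beside 19.1% to 27.1%. SMARCA4 itself stayed between log2 -1.74 and -1.54 on leaving out single libraries. The TNFAIP3 estimate for siSMARCA4 reversed to log2 -0.275 in VM libraries, -0.233 with V or VM as a covariate, and -0.227 and -0.381 with the replicate blocks. REL with 4OHT, near 0, reversed to -0.002 with RLE factors, -0.024 with TMMwsp, -0.021 without a filter, -0.326 with number 2 alone and -0.027 with number as a covariate, and ran from -0.079 to 0.078 on leaving out libraries. CEBPD with 4OHT reversed to 0.338 with number 4 alone, 0.221 in VM libraries and 0.224 and 0.396 with the blocks, and ran from -0.287 to 0.085 on leaving out libraries. With TMM factors from the intron repeats, 4 instead of 2 members were called for siSMARCA4, beside 16.2% instead of 21.3% of genes. Against DMSO siNT 2 instead of 3 were called, beside 30.4% instead of 39%. There the call of NFKBIZ was lost (log2 0.78) and RELA reversed to -0.143. The median level per length of the members in 4OHT siNT was 16.4 by exon union and 21.8 by longest transcript. The causes were not tested.

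Same-named libraries did not all deviate together (r 0.083, 0.344 and -0.134 for siSMARCA4 and siNT; -0.44, -0.325 and 0.197 for 4OHT and DMSO), so the labels' numbers were not taken to pair the samples. Libraries with the same tag (such as 2VM) and the other siRNA number had r -0.099, 0.021 and 0.108 for siSMARCA4 and siNT, and 0.344, 0.391 and 0.551 for 4OHT and DMSO. With the replicate block, 4 members were called for siSMARCA4 against siNT under either form of the block: NFKB2, RELB, CEBPB and CEBPD. Of all genes, 22.8% were called with the block on the tag and 15.6% with that on number and tag. The calls of REL, NFKBIA and NFKBIZ were lost, and that of CEBPB was gained. For 4OHT against DMSO 8 or 9 were called (CEBPD gained with number and tag), beside 48.4% or 40.7% of all genes. Against DMSO siNT 10 or 8 were called, beside 47% or 32.5%. REL had the lowest counts of the 10, at 49 to 255 a library.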
